A study of Mus musculus with 4 samples.

Results

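Osteoblasts build bone by secreting a collagen-rich matrix and mineralizing it, and those that become enclosed in that matrix turn into osteocytes. The transcription factors Runx2 and Sp7 drive this lineage. Alpl, the tissue-nonspecific alkaline phosphatase, frees phosphate for mineral, Ibsp and Spp1 encode the acidic matrix proteins bone sialoprotein and osteopontin, Bglap and Bglap2 encode osteocalcin, and Dmp1 and Phex act in osteocytes on mineral and phosphate balance. These 9 genes were looked up by symbol among the 33696 features of 4 single-cell libraries, and each symbol matched 1 row. They were followed across cell classes defined by other marker genes.

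The libraries came from female C57BL/6 mice aged 6 to 8 weeks. The study's methods state that the tip of the last phalanx was cut from hindlimb digits 2 and 4, and that digits 2 to 4 were collected afterwards, so uninjured digits may be part of each library. The digits of 10 mice were pooled per library, with 1 library per condition. In the diet pair, SAR131675, an inhibitor of the lymphatic growth factor receptor VEGFR3, was given in chow at 30 mg/kg and set against control diet. The diet ran for 8 days by the series record, whereas the methods begin the chow before amputation and keep it on to the end. The sources also differ on the day after amputation at which the digits were taken, so neither the length of the diet nor that day is settled here. In the surgical pair, lymph node removal (LNR) on 1 limb was set against a sham library. The study places the sham on the opposite limb, and the label of this library gives no treatment. Each library was its own batch, so batch and condition cannot be told apart, and there was no replicate of any condition. The digits had been enzymatically digested and filtered, so cells enclosed in mineral may be missed, and the pooling hides differences between mice.

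After limits on genes, unique molecular identifiers (UMIs, each standing for 1 captured transcript) and mitochondrial content, 29076 SAR131675, 24030 control diet, 19827 LNR and 20669 sham cells were kept. Their median depth was 11316, 10712, 5725 and 5851 UMIs. The paired libraries shared 210 cell barcodes in the diet pair and 101 in the surgical pair. The file headers name Cell Ranger 8.0.1 for the diet pair and 6.1.2 for the surgical pair, so ratios are drawn only within a pair, and values set side by side across pairs, means and overlaps included, also span that difference in version. Levels are given in CPM, the UMIs of a gene scaled to a fixed total of UMIs of a class in a library. Intervals are 95% and cover counting error only, so they are too narrow for genes whose UMIs sit in a handful of cells.

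An osteoblast-like cluster, formed without the 9 genes, held 175 SAR131675, 108 control diet, 247 LNR and 181 sham cells, or 0.602%, 0.449%, 1.25% and 0.876% of the kept cells. All 14 osteoblast markers were detected in it in every library, and their summed level ranged from 1882 to 2399 CPM. Markers of other types were present too. The tenocyte list summed to 1010 to 1613 CPM with all 7 markers detected, and the fibroblast list to 7398 to 9739 CPM with 8 or 9 of 9 markers detected, most of it from Lum. Of the 7 osteoclast markers, which summed to 455 to 577 CPM, Ctsk gave most, and Calcr, Ocstamp and Dcstamp were at 0 in all 4 libraries. Prg4, a joint lubricant gene, stood at 6651 CPM in LNR and at 562 to 753 in the other libraries, and 1 cell held 43.1% of the LNR UMIs. Erythroid markers summed to 707 and 1086 CPM in the diet pair and to 75.8 and 48.6 in the surgical pair, with 4 or 5 of 5 detected. Basal keratinocyte markers, 5 of 5 detected, summed to 239 CPM in SAR131675, 99.8 in control diet, 148 in LNR and 188 in sham. The part of these cells in the levels below was not tested.

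The sequence before the start site is shown for the members whose window held the core letters bound by RUNX factors, since Runx2 is itself a member. RefSeq (GRCm38.p6, an older build than the GRCm39 of the count files) gave 10 windows of 250 bases for 7 of the 9 members, and none for Bglap2 or Sp7. The letters ACCACA, or TGTGGT on the other strand, were found in 4 windows of 4 members, and in 14.0% of all 32851 windows of the same length. A match describes letters and not binding. The stretches below run 5′ to 3′ on the gene's strand with the match in capitals.
Runx2, chr17:44814692-44814717, minus strand: gaggtcacaaACCACAtgattctgtc
Spp1, chr5:104434973-104434998, plus strand: tttttttttaACCACAaaaccagagg
Bglap, chr3:88384583-88384608, minus strand: gcaatcacctACCACAgcatcctttg
Dmp1, second start site, chr5:104202443-104202468, plus strand: tcatttgagaACCACAagagcttttt

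The matches lay 80, 128, 132 and 164 bases before the start of Runx2, Spp1, Bglap and Dmp1. The letters TATAAA, or TTTATA on the other strand, lay 27 bases before the start of Bglap and 28 before that of Ibsp. They also lay 211 bases before the first Spp1 start and 192 before the second Alpl start, and were found in 12.4% of all windows. The windows of Ibsp, Alpl and Phex, the second of Spp1 and the first of Dmp1 had no RUNX letters.

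Across the 16 classes found in all 4 libraries, 8 of the 9 genes had their highest mean level in osteoblast-like cells, as did 5.42% of 22907 genes with 20 UMIs. For Sp7, Alpl, Ibsp, Bglap and Bglap2 the 4 library values did not overlap with those of the next class, which held for 0.375% of all genes. Within each library, 7 members, Runx2 and Dmp1 among them, were highest in osteoblast-like cells, against 0.943% of all genes. The Runx2 values thus overlapped with the next class only between libraries. For Dmp1 the order within LNR is not settled. Its levels in osteoblast-like and pericyte/SMC-like cells of that library were nearly equal, with counting intervals that overlapped. Spp1 was higher in tenocyte-like cells in SAR131675, and Phex had its highest mean in chondrocyte-like cells. Because clusters group cells by genes that vary with these, the order of classes is a description.

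**Figure D1:**
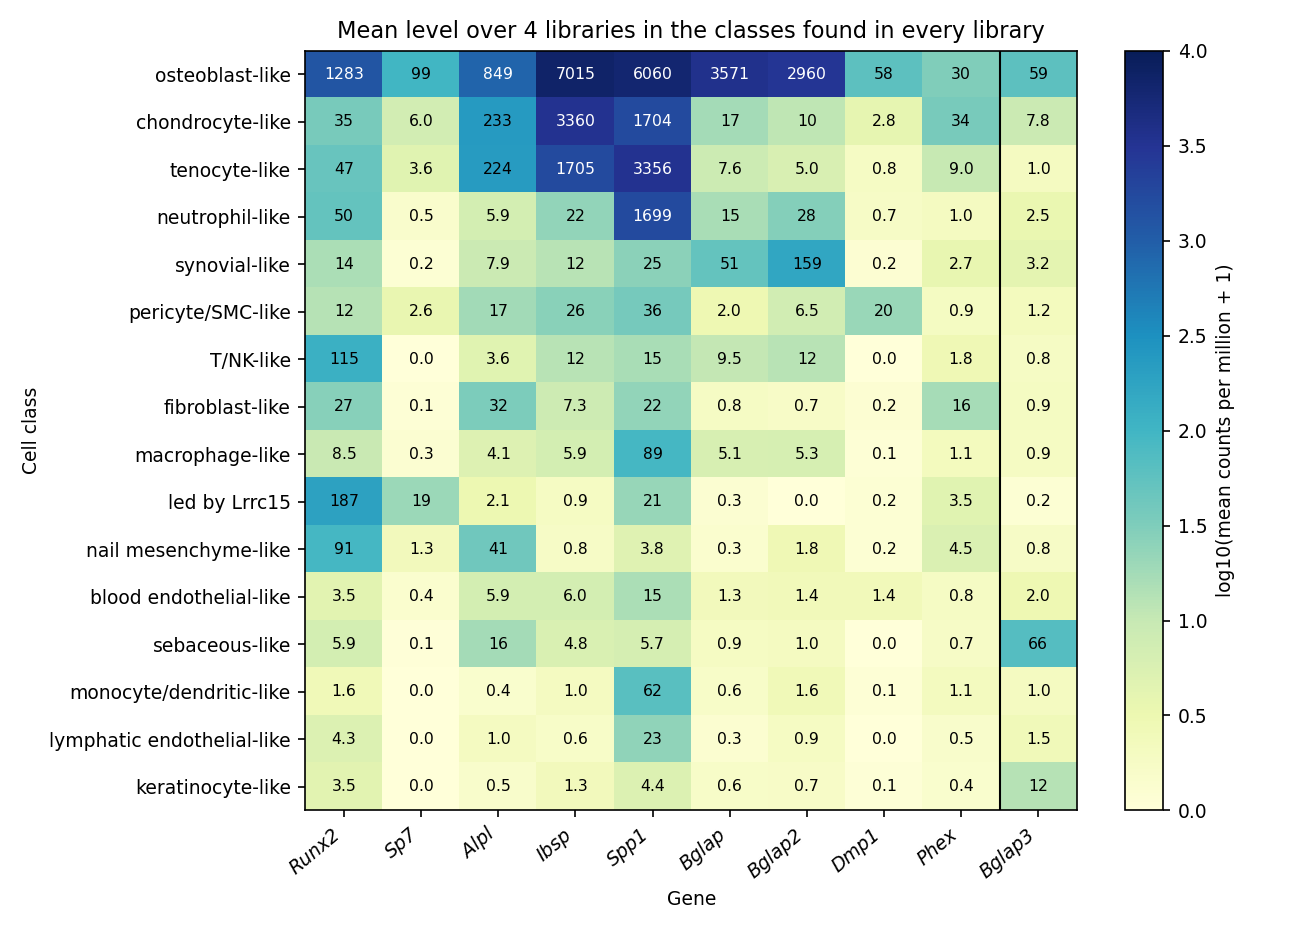
Mean CPM over the 4 libraries for each gene (columns) in the 16 classes found in every library (rows), coloured by log10(mean + 1), with Bglap3 to the right of the line for comparison. The osteoblast-like row is highest for every member but Phex, while Ibsp, Spp1 and Alpl were also high in chondrocyte-like and tenocyte-like cells.

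Of the transcription factors, Runx2, which commits cells to the lineage, stood at 2248 CPM in SAR131675, 2261 in control diet, 288 in LNR and 336 in sham osteoblast-like cells. Both diet libraries were high and both surgical libraries low. Whether the Cell Ranger version has a part in the split was not tested. A Runx2 UMI was seen in 98.3%, 97.2%, 66.8% and 71.3% of the cells, against 1.33% to 4.85% of keratinocyte-like cells, whose median depth was 8180 to 12847 UMIs. In T/NK-like cells, at 2199 to 5670 UMIs, the share was 9.57% to 56.1%. With cells thinned to 1500 UMIs the osteoblast-like shares were 83.2%, 88.8%, 29.7% and 41.9%. Cells with fewer UMIs were left out, 8, 1, 8 and 9 of the osteoblast-like cells.

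Sp7, or osterix, which acts after Runx2, was lower, at 114, 116, 77.5 and 87.0 CPM. The diet libraries were again above the surgical ones, with a smaller gap than for Runx2. The counting intervals of both diet libraries overlapped with that of sham (68.7 to 108.8 CPM) but not with that of LNR (62.6 to 94.8). The mean of Sp7 was 98.6 ± 19.3 (SD, n = 4 libraries). All keratinocyte-like cells of a library held 1 to 7 UMIs of it. The T/NK-like cells had no Sp7 UMI in any library, which allows up to 1.74 to 3.70 CPM. In the diet pair 97.8% and 96.1% of the Sp7-positive osteoblast-like cells also had Runx2, and in the surgical pair 75.0% and 74.1%. Of all osteoblast-like cells, 98.3%, 97.2%, 66.8% and 71.3% had Runx2, so these shares alone do not show that the 2 factors go together.

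Among the shared classes the next for both factors was an unnamed mesenchymal cluster led by Lrrc15. There Runx2 stood at 298, 354, 47.0 and 50.03 CPM and Sp7 at 26.1, 15.9, 14.5 and 20.2. Its 109 to 313 cells held 0 to 3 Ibsp UMIs and at most 1 Bglap UMI per library, and Spp1 stood at 6.06, 4.78, 70.8 and 0.962 CPM. T/NK-like cells came next for Runx2, at 207, 189, 31.1 and 33.3 CPM. Runx2 was also seen in nail mesenchyme-like cells, at 34.8 to 169.9 CPM, where Ibsp had 0 to 2 and Bglap 0 or 1 UMIs.

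Alpl, the mineralization enzyme, was the most even member, at 781, 887, 884 and 845 CPM in osteoblast-like cells. Its mean was 849 ± 49.3 (SD, n = 4 libraries) and its UMIs in this class were spread over many cells, with 50% of them in 19 to 37 cells. Chondrocyte-like cells followed at 233 ± 75.3 and tenocyte-like cells at 224 ± 210, so the latter pair overlapped.

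Ibsp, which binds collagen and nucleates mineral, had the highest mean of the members, at 5921, 6042, 8203 and 7895 CPM in SAR131675, control diet, LNR and sham osteoblast-like cells. Only in SAR131675 was another member, Spp1, above it. A UMI of it was seen in 62.3%, 68.5%, 58.3% and 60.2% of these cells, and in 0.472% to 1.07% of keratinocyte-like cells. Thinning to 1500 UMIs left 56.9%, 61.7%, 55.2% and 56.4%. Chondrocyte-like cells, led by Col10a1, the collagen of hypertrophic cartilage, and by Cytl1, held 2068, 3282, 4662 and 3427 CPM. In SAR131675 1 of those cells gave 62.6% of that class's Ibsp UMIs.

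Spp1, a cell-binding matrix protein also made outside bone, stood at 7984, 3864, 5683 and 6710 CPM in osteoblast-like cells. It was seen in 44.6%, 38.0%, 40.1% and 37.6% of them, and in 0.592% to 4.03% of keratinocyte-like cells. The share was larger in chondrocyte-like cells, at 63.2%, 61.9%, 56.3% and 46.9%, and in tenocyte-like cells of the diet pair, at 61.6% and 42.7%, but smaller in those of the surgical pair, at 23.4% and 25.9%. Thinned to 1500 UMIs, the osteoblast-like shares were 37.1%, 33.6%, 34.7% and 32.0% and the chondrocyte-like shares 48.7%, 36.9%, 42.2% and 35.8%, with intervals that overlapped in every library. The signal lay in few cells, and in each library 3 to 5 osteoblast-like cells held 50% of the Spp1 UMIs of that class. The top SAR131675 cell had 2845 Spp1 UMIs, 14.9% of that cell's 19136 UMIs, and carried all 9 members.

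Spp1 was also seen in blood cells. Neutrophil-like cells stood at 1778, 2471, 510 and 2037 CPM, with 3 to 7 cells holding 50% of the UMIs, and macrophage-like cells at 53.5 to 135. Cells with at least 4 of 7 osteoclast markers numbered 5, 3, 4 and 10 and held 534, 20, 1099 and 7 Spp1 UMIs, and only 1, 0, 0 and 0 of them lay in macrophage-like or monocyte/dendritic-like classes. Those 4 LNR cells also held 456 Ibsp UMIs.

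Bglap and Bglap2, the osteocalcin pair made by mature osteoblasts, had the largest ratios of mean level between osteoblast-like cells and the next of the shared classes. Bglap stood at 2160, 1868, 3845 and 6409 CPM there, against 31.1 to 69.9 in synovial-like cells, the next of them. Classes not found in every library reached more in single libraries, up to 352 CPM in LNR mast-like cells, where 1 cell held 80.7% of the UMIs. Bglap2 stood at 2145, 1808, 2939 and 4947 CPM, against 93.5 to 242. In chondrocyte-like cells, where Ibsp was high, Bglap stood at 1.39 to 33.9 CPM. For each 100 Ibsp UMIs, osteoblast-like cells held 36.5, 30.9, 46.9 and 81.2 Bglap UMIs, and chondrocyte-like cells 0.0672, 0.275, 0.469 and 0.991.

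The same split was seen in other mesenchymal clusters. An unnamed cluster led by Mmp3 in the surgical pair, with 128 LNR and 107 sham cells, held 6303 and 3206 Spp1 CPM and 2045 and 629 of Ibsp. This cluster was left unnamed by a choice made after levels had been seen, so it is not a case independent of the osteoblast-like class. Bglap stood at 10.2 and 0.985 there, Runx2 at 99.7 and 104 and Sp7 at 21.0 and 27.6. It held 33.8% of the LNR library's Spp1 UMIs, where osteoblast-like cells held 25.1%, and 16.3% of the sham library's, where osteoblast-like cells held 29.7%, so the order differed between the 2 libraries. Tenocyte-like cells of the diet pair held 5720 and 1076 Ibsp CPM, and those of the surgical pair 7.44 and 17.2. Spp1 there was 8488 and 2988 in the diet pair and 869 and 1080 in the surgical pair. Of the 25 SAR131675 tenocyte-like cells with at least 50 Spp1 UMIs, 13 had Ibsp and 2 had Bglap. The tenocyte-like classes of the pairs came from separate clusterings and need not hold the same cells.

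Dmp1, an acidic matrix protein of osteocytes, was low, at 110, 63.0, 17.3 and 41.8 CPM in osteoblast-like cells. These rest on 165, 60, 21 and 37 UMIs in 18, 10, 13 and 12 cells. Of those Dmp1-positive cells, 17, 9, 13 and 12 also had Bglap. In SAR131675 1 cell held 42.4% of the Dmp1 UMIs of the class, and in control diet 1 cell held 40%.

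Dmp1-positive cells were also found among pericyte/SMC-like cells, a larger class. These cells, from a cluster whose leading genes included the vessel wall genes Myh11, Rgs5 and Acta2, numbered 86, 40, 34 and 15. They were 12.5%, 8.58%, 4.69% and 2.46% of the class, where Dmp1-positive cells were 10.3%, 9.26%, 5.26% and 6.63% of osteoblast-like cells. The intervals of these shares overlapped in every library, in sham only at their ends (1.38% to 4.02% against 3.47% to 11.3%). Keratinocyte-like cells had 0.0199% to 0.0526% in the 3 libraries where any was seen. The pericyte/SMC-like cells held 41.0%, 49.7%, 60% and 15.8% of each library's Dmp1 UMIs. Bglap was present in 0, 0, 0 and 1 of them and Ibsp in 1, 0, 0 and 1. In osteoblast-like cells Rgs5 was at 10.0 to 79.9 CPM, against 3455 to 7025 in pericyte/SMC-like cells.

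**Figure D2:**
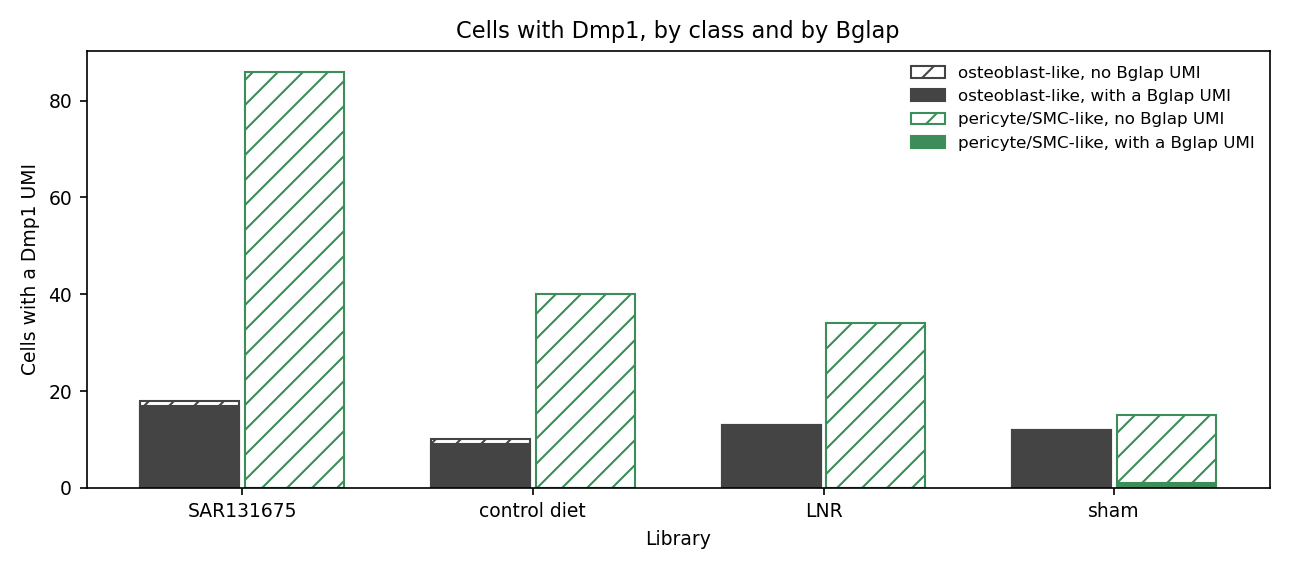
Number of cells with a Dmp1 UMI in osteoblast-like (grey) and pericyte/SMC-like (green) cells of each library, with the filled part of a bar showing cells that also had a Bglap UMI and the hatched part those without. Nearly all Dmp1-positive osteoblast-like cells had Bglap, and 1 pericyte/SMC-like cell, in sham, did.

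Phex, a peptidase-like protein that limits phosphate loss, was the lowest member. It stood at 62.3, 32.6, 9.07 and 18.1 CPM in osteoblast-like cells, from 93, 31, 11 and 16 UMIs. Chondrocyte-like cells held 34.8, 54.1, 28.8 and 19.7 and fibroblast-like cells 11.3 to 20.2, so these 3 classes overlapped. Later osteocyte genes were hardly seen: Sost, the WNT inhibitor of mature osteocytes, had 1, 0, 0 and 1 UMIs in osteoblast-like cells, and Fgf23, the phosphate hormone, had 1, 1, 0 and 0. Mepe, an osteocyte matrix protein, had 23, 18, 3 and 11.

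Within single osteoblast-like cells a median of 5, 5, 4 and 5 of the 9 members had a UMI. At least 5 members were seen in 60.6%, 71.3%, 47.4% and 50.3% of the cells, and all 9 in 4, 1, 0 and 1 cells. Of 7869 to 18332 keratinocyte-like cells per library, 1, 0, 3 and 5 had at least 5 members. Across osteoblast-like cells the Bglap and Bglap2 counts rose together, with a Spearman correlation of 0.82 to 0.87 over 108 to 247 cells per library. The correlation was 0.49 to 0.54 for Ibsp and Spp1 and -0.02 to 0.19 for Runx2 and Sp7. Cells differ in depth, which all counts share.

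Bglap, Bglap2 and a further copy, Bglap3, lie side by side and are nearly the same sequence. The last 300 bases of their transcripts, which 3′ libraries read, matched at 299 of 300 bases for Bglap and Bglap2 and at 290 of 300 for Bglap and Bglap3. A read can thus fit more than 1 copy. Whether such reads were assigned wrongly or left uncounted was not tested, so the level of each copy is uncertain. Bglap2 made up 49.8%, 49.2%, 43.3% and 43.6% of the Bglap and Bglap2 UMIs in osteoblast-like cells. In synovial-like cells it made up 73.6%, 75.0%, 77.6% and 75.7%. The binomial intervals of the classes do not overlap in any library (48.6% to 51.1% against 70.7% to 76.3% in SAR131675). The synovial-like cells held 255, 158, 432 and 370 Bglap UMIs, seen in 24.4% to 31.5% of them, against 0.226% to 0.736% of keratinocyte-like cells.

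Bglap3 followed another pattern. It was highest in epithelium: the secretory clusters led by Fxyd2, named sweat gland-like in the diet pair, held 338 CPM in SAR131675, 342 in control diet, 582 in LNR and 700 in sham. Cornified keratinocyte-like clusters led by Lor, a cell-envelope gene, held 149, 185, 129 and 101 CPM. In the clusters led by Fxyd2 the surgical pair had 14 and 0 Bglap UMIs beside 514 and 441 of Bglap3. In osteoblast-like cells Bglap3 stood at 13.4 and 6.30 CPM in the diet pair and at 94.0 and 123 in the surgical pair. The pairs differ in Cell Ranger version, and its part was not tested.

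**Figure D3:**
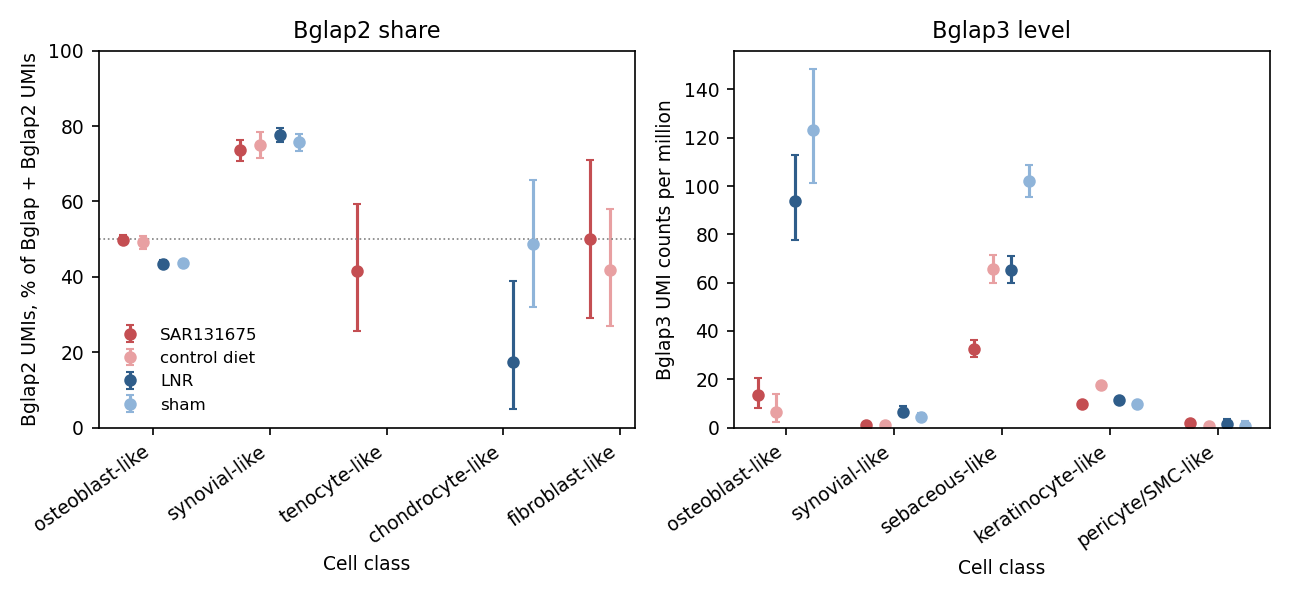
Left, Bglap2 UMIs as a percentage of Bglap and Bglap2 UMIs in 5 classes, drawn where a class of a library had at least 20 such UMIs, with exact binomial 95% intervals. Right, Bglap3 CPM in 5 classes with exact Poisson 95% intervals. Osteoblast-like cells sit at or below 50% and synovial-like cells near 75%, while Bglap3 is 32.7 to 102 CPM in sebaceous-like cells and 6.30 to 123 in osteoblast-like cells.

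The sequences before the starts of Bglap and Bglap3 are far less alike than their transcripts. For the 3 Bglap3 starts identity was 47.4% to 52.4%, over alignments of 267 to 270 positions with gaps included. The identity of unrelated windows was not computed, so likeness is not read from these values. The sequences are printed because these copies differ in the class that holds them. In the Bglap sequence the capitals mark the RUNX letters, and the first Bglap3 start has none.
Bglap, chr3:88384467-88384716, minus strand: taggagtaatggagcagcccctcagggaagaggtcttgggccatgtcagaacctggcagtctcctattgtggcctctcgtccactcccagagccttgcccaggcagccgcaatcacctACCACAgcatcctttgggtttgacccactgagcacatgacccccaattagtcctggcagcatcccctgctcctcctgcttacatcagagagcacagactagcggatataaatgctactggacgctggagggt
Bglap3, first start site, chr3:88372742-88372991, minus strand: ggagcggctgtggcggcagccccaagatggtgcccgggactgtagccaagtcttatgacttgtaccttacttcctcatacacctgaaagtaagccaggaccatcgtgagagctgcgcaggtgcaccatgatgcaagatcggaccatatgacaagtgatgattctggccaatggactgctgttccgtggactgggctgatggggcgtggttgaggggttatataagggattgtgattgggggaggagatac

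The SAR131675 library was compared with control diet to ask how bone genes stood under VEGFR3 inhibition. A gene was called where its level differed at least 2-fold and the pair held at least 20 UMIs of it. In osteoblast-like cells 1 of 9 members, Spp1, was called. Among all 9899 genes with 20 UMIs, 3.94% were called, 2.05% higher and 1.89% lower in SAR131675. Spp1 stood at 7984 CPM in SAR131675 and 3864 in control diet, a log2 ratio of 1.05 (0.99 to 1.10). Without the top cell of each library it was 0.98, without the top 5 cells 1.34, and with no upper limit on genes or UMIs per cell 0.96, so the call was lost in the first and last of these. The tenocyte markers of the class moved the same way, with all 7 detected in both libraries and a sum of 1439 CPM in SAR131675 and 1010 in control diet, and their part in the call was not tested. Spp1 was seen in 44.6% (37.1% to 52.3%) of SAR131675 and 38.0% (28.8% to 47.8%) of control diet cells.

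The other members were closer to equal. Runx2, Sp7 and Ibsp had log2 ratios of -0.01, -0.01 and -0.03, with intervals of -0.09 to 0.07, -0.37 to 0.35 and -0.08 to 0.02. Alpl was at -0.18 (-0.31 to -0.05). Dmp1 and Phex, the osteocyte genes, were at 0.81 (0.38 to 1.26) and 0.94 (0.33 to 1.57), under the 2-fold line. Bglap was at 0.21 and Bglap2 at 0.25, and without the top cell of each library Bglap was at -0.12, Ibsp at 0.24 and Phex at 1.66. With no upper limit on genes or UMIs per cell, Bglap, Bglap2 and Phex turned to -0.63, -0.33 and -0.68, and Dmp1 fell to 0.08. Classing cells by UMIs of at least 3 osteoblast markers took 1677 SAR131675 and 1213 control diet cells. Of these, 9.06% and 8.16% lay in the osteoblast-like cluster. By that rule Dmp1 passed the 2-fold line, at 1.19 (0.78 to 1.62), where Phex was at 0.01. Without the top 5 cells of each library both passed it, Dmp1 at 1.69 (0.58 to 3.00) and Phex at 3.30 (1.66 to 5.63). Control diet had 10 Dmp1-positive and 8 Phex-positive osteoblast-like cells, against 18 and 26 in SAR131675. Leaving out 5 cells thus takes a larger part of the positive control diet cells, and no conclusion is drawn from these ratios.

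Over all kept cells of the diet pair 1 of 9 members, Dmp1, was called at 1.15 (0.88 to 1.43), where 2.87% of 22625 genes were called, 1.55% higher and 1.32% lower. Spp1 was at 0.88, Bglap at 0.83, Bglap2 at 0.77, Sp7 at 0.57, Ibsp at 0.56 and Runx2 at 0.31, and Alpl and Phex had intervals that included 0. Osteoblast-like cells were 0.602% of SAR131675 and 0.449% of control diet cells. In whole-library sums, more cells of a type and more RNA per cell cannot be told apart. A cluster led by Cfd, an adipocyte gene, held 18.3% of the SAR131675 Bglap UMIs in 14 cells, and 5 Bglap UMIs in control diet. Of its 843 SAR131675 Bglap UMIs, 798 lay in 4 cells, which had a median of 7.5 members. All 4 had Runx2 and Ibsp, so these UMIs need not come from adipocytes.

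The LNR library was set against sham to ask the same after loss of the draining nodes. In osteoblast-like cells 1 of 9 members, Dmp1, was called, where 3.77% of 8392 genes were, 2.03% higher and 1.74% lower in LNR. Dmp1 stood at 17.3 CPM in LNR and 41.8 in sham, a log2 ratio of -1.27 (-2.12 to -0.46), from 21 and 37 UMIs. Without the top 5 cells of each library it was -0.64 (-2.21 to 0.91), and with no upper limit on cells -0.23 (-0.89 to 0.44), and in both the interval included 0. In pericyte/SMC-like cells Dmp1 was higher in LNR, at 1.19 (0.40 to 2.03) on 51 and 19 UMIs. In the diet pair it was at 0.65 (0.26 to 1.06) there. The share of all genes past the 2-fold line was not counted in that class, so no call is made from these ratios.

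Bglap and Bglap2 were lower in LNR at log2 ratios of -0.74 (-0.79 to -0.68) and -0.75 (-0.82 to -0.69). A Bglap UMI was seen in 68.0% of LNR and 64.1% of sham osteoblast-like cells. In sham 5 cells held 50% of the Bglap UMIs of the class and in LNR 13 cells. Without the top 5 cells the ratios were -0.28 and -0.42, and with no upper limit on cells -0.10 and -0.36. Ibsp was at 0.06 (0.01 to 0.10), Spp1 at -0.24 (-0.29 to -0.19) and Alpl at 0.06 (-0.07 to 0.20). Runx2 was at -0.22 (-0.45 to 0.01) and Sp7 at -0.17 (-0.62 to 0.29). Phex was at -0.996 (-2.25 to 0.20) on 27 UMIs. Spp1 turned to 0.34 at a clustering resolution of 0.4, where the class held 376 LNR and 290 sham cells. At the main resolution of 0.7 the class held 247 and 181 cells, and the cluster left unnamed and led by Mmp3 held 128 and 107. The sign of the Spp1 ratio thus depended on the resolution. Whether the class at 0.4 took in cells of the cluster led by Mmp3 was not tested.

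Over all kept cells of the surgical pair no member was called, where 1.79% of 19200 genes were, 0.969% higher and 0.823% lower. Ibsp was at 0.86 (0.82 to 0.89) and Spp1 at 0.54 (0.51 to 0.56), Bglap was at 0.00 (-0.05 to 0.05), and Dmp1 at -0.42 (-0.84 to -0.01). Osteoblast-like cells were 1.25% of LNR and 0.876% of sham cells.

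**Figure D4:**
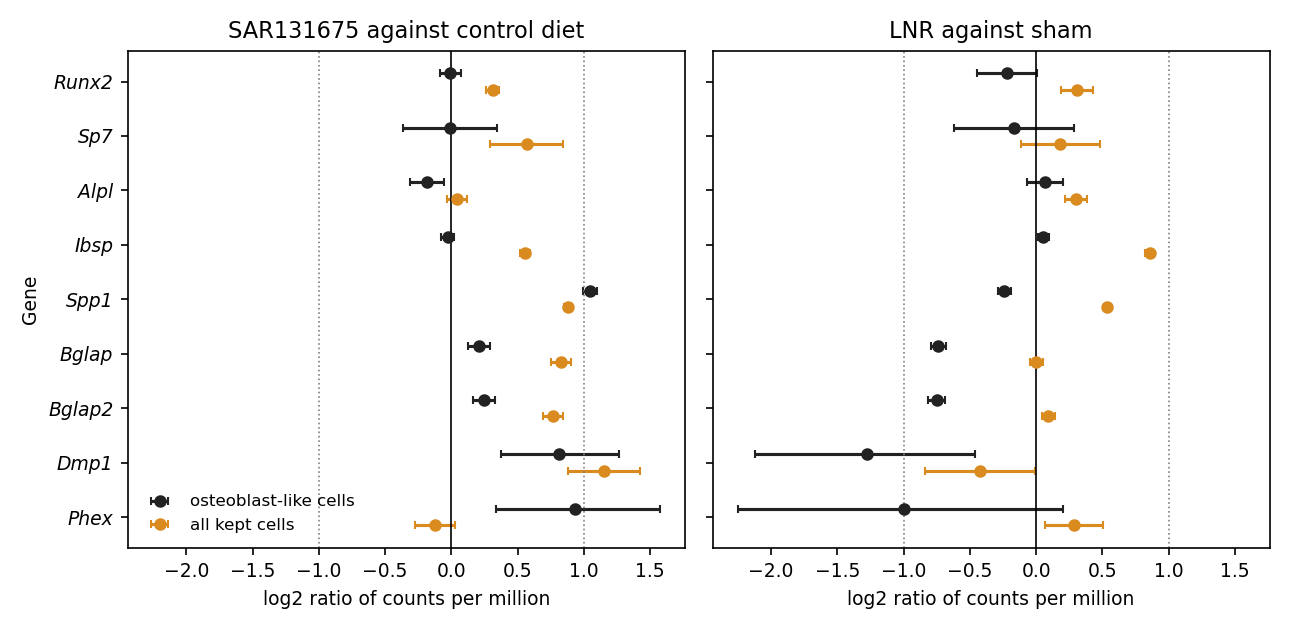
Log2 ratio of CPM, treated over control, for each gene in osteoblast-like cells (black) and in all kept cells (orange), with exact conditional 95% intervals and dotted lines at a 2-fold difference. In the diet pair Spp1 lies past the 2-fold line in osteoblast-like cells, and in the surgical pair the intervals of Spp1, Bglap, Bglap2 and Dmp1 lie below 0 there, while in all kept cells only that of Dmp1 does.

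**Figure D5:**
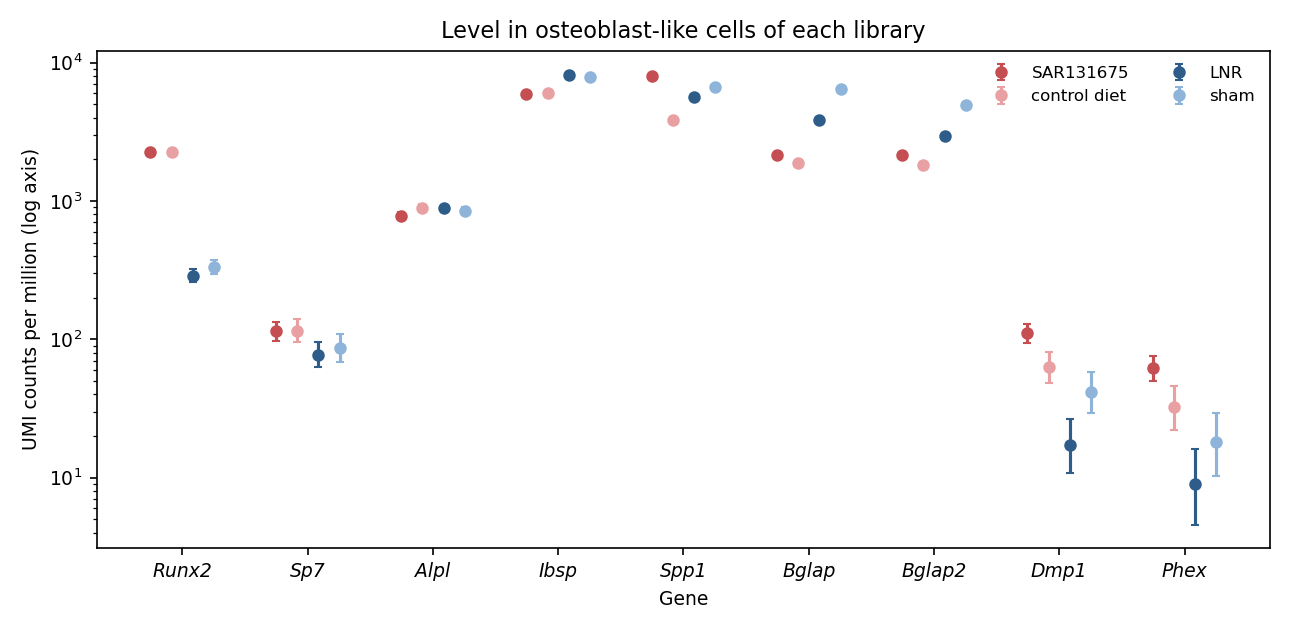
CPM (log axis) of each member in the osteoblast-like cells of each library, with exact Poisson 95% intervals. Alpl is nearly level over the 4 libraries, Runx2 and, with a smaller gap, Sp7 are higher in the diet pair, and Dmp1 runs from 17.3 to 110.4. The Sp7 intervals of the diet pair overlap with that of sham.

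Lists of related genes were counted in the same osteoblast-like cells, and some of them, such as Ifitm5 and Pth1r, also served as markers that named the class. Over all kept cells 2.87% of all genes were called in the diet pair and 1.79% in the surgical pair. In osteoblast-like cells these shares were 3.94% and 3.77%. Of 10 other bone matrix genes, 8 were above and 2 below a ratio of 1 in the diet pair, with 1 called, Bglap3, on 26 UMIs. The 9 with 20 UMIs in the surgical pair were all lower in LNR, at a median log2 ratio of -0.39, against 0.01 over all genes, and none was called. The osteoblast markers that named the class were lower too, 9 of 12 below 0 at a median of -0.23, with Col13a1 and Slc36a2 called. Of other types, synovial markers summed to 6862 CPM in LNR and 848 in sham, nearly all Prg4, tenocyte markers to 1613 and 1418 and fibroblast markers to 7398 and 7591, and their part in the list's change was not tested. Over all kept cells the list went the other way, with 7 of 10 above 0 at a median of 0.19 and 1 called lower, Mepe. Among the 9, Col1a1, the main bone collagen, was at -0.52 and Ifitm5, an osteoblast membrane protein, at -0.93. Of 9 bone transcription factors 7 could be counted in each pair and none was called, with medians of 0.00 and -0.02. The 8 mineralization and phosphate genes gave 7 in each pair, none called, with medians of -0.10 and 0.00.

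Of the 7 osteocyte genes, 4 could be counted in osteoblast-like cells of the diet pair, where 3.94% of all genes were called. Of these 4, 1 was called, Irx5, at 1.57 (0.27 to 3.14) on 28 and 6 UMIs. In the surgical pair, where 3.77% of all genes were called, 3 could be counted and none was called. Over all kept cells 6 could be counted in each pair, where 2.87% and 1.79% of all genes were called. Dkk1, a WNT inhibitor, was called higher in SAR131675 at 1.45 (0.57 to 2.43) on 49 and 14 UMIs, and 4 of the 6 were above 0. Sost at -1.05 (-2.01 to -0.16) and Mepe at -2.69 were called lower in LNR, on 16 and 35 and on 5 and 34 UMIs, and 4 of the 6 were below 0. In osteoblast-like cells Sost had 0 LNR and 1 sham UMIs, so nearly all of its UMIs lay outside that class. Mepe had 3 and 11 UMIs in osteoblast-like cells, and 1 sham cell held 81.8% of the 11. All 5 genes of the PTH and RANKL axis were lower in SAR131675, none by 2-fold, at a median of -0.37 against -0.03 over all genes, with Pth1r, the parathyroid hormone receptor, at -0.37, Tnfsf11, which encodes RANKL, at -0.37 (-0.77 to 0.04) and Mmp13, a collagenase, at -0.79. In the surgical pair 3 of the 5 were above 0, at a median of 0.13 against 0.01 over all genes, with Pth1r at -0.38, Tnfsf11 at 0.47 (-0.09 to 1.05) and Mmp13 at 0.47. Over all kept cells of the diet pair 2 were above and 3 below 0, at a median of -0.03 against -0.02 over all genes, and none was called. Over all kept cells of the surgical pair 5 of 5 were above 0 and 1 was called, Mmp13, at 1.37, where 1.79% of all genes were called.

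The genes most like each member were ranked by Pearson's r of log2(CPM + 10) over 112 sums of a class in a library with at least 50 cells, among 14514 genes that reached 100 UMIs in every library. The sums share libraries, and Dlx6 and Ifitm5 were among the markers, so r is a description. Dlx6 came first for Sp7 (0.88). Ibsp and Alpl were nearest to each other (0.85), as were Bglap and Bglap2 (0.97), followed for both by Dlx6. Ibsp also came first for Spp1 (0.76). Dio2, a thyroid hormone deiodinase, came first for Phex (0.72) and Cldn8, an epithelial junction gene, for Bglap3 (0.82). Dlx6 came first for Dmp1 (0.81), which itself had under 100 UMIs in LNR.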

How the data were processed

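The deposited matrices hold UMI counts per gene and barcode that the authors made from 10x Genomics 3′ v3 libraries. The submitters' notes give Cell Ranger 6.1.2 and GRCm39, while the headers of the diet pair name 8.0.1. Whether introns were counted is not given in the sources used here. Following the limits the authors give for the LNR experiment, barcodes with 200 to 5500 genes, at most 30000 UMIs and at most 10% mitochondrial UMIs were kept. Each pair was clustered apart in 2 rounds (scikit-learn 1.9.0 and igraph 0.11.9, 2000 variable genes, 30 components, resolution 0.7) without the 9 members and Bglap3. Clusters took a name from the marker list with the highest mean z-score of log2(CPM + 10), at least 0.75, with the next list below 0.8 of it and at least 3 markers in 5% of cells. All others are called by their leading gene. Doublets called by Scrublet were kept and removed as an alternative. The members, lists and comparisons were chosen with earlier results of these data known, and the naming rule after scores, cell numbers and levels had been seen, including leaving the cluster led by Mmp3 unnamed. The genes named are the members, Bglap3, genes of the fixed lists and markers, leading genes of clusters, and the 3 most similar genes. Some results under this rule are not reported here.

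With 1 library per condition no test between conditions exists. Levels carry exact Poisson intervals, shares Clopper-Pearson intervals and ratios exact conditional intervals (SciPy 1.17.1), at 95%. A count of 0 allows up to 3 counts. The ratio was tested on simulated data. 3′ counts are not scaled by length. The alternatives were other cell limits and resolutions, doublet removal, classing cells by 3 osteoblast markers, thinning to 1500 UMIs, all kept cells, and leaving out top cells, of which leaving out 5 was added after seeing the data. Thinned shares leave out the cells with fewer than 1500 UMIs.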

Additional observations from a re-analysis of the deposited data

How the results depend on the processing

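The count of members highest in osteoblast-like cells was 8, and 8 or 9 under other cell limits, resolutions and doublet removal, but 5 when cells were classed by UMIs of at least 3 osteoblast markers. That rule took 656 to 1677 cells per library, of which 8.16% to 20.4% lay in the osteoblast-like cluster. The count called in the diet pair was 1, where 3.94% of all genes were called. It became 0 with no upper limit on genes or UMIs (4.06% of all genes), 2 with cells classed by markers (Spp1 and Dmp1; 4.12%) and 3 without the top 5 cells of each gene (Spp1, Dmp1 and Phex; 4.98%). In the surgical pair it was 1, against 3.77% of all genes, and became 0 with no upper limit (3.65%), over all kept cells (1.79%) and without the top 5 cells (4.98%), where 7 members could be counted. The cause was not tested. In the diet pair, leaving out 5 cells took a larger part of the Dmp1-positive and Phex-positive cells from control diet than from SAR131675. The median share of osteoblast-like cells with a UMI over the members went from 61.7% to 50.9% in SAR131675, from 68.5% to 56.1% in control diet, from 58.3% to 34.7% in LNR and from 60.2% to 41.9% in sham when cells were thinned to 1500 UMIs, so depth limits the shares. Scrublet called 1.01% to 8.12% of cells against an expected rate of 15.9% to 23.3% given to it, so doublets may remain after removal. No paired analysis was possible because each condition has 1 library, so the groups share fewer than 2 replicate numbers.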
